A study of Mus musculus with 14 samples.

Results

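Nephron lineage transcription factors are the 7 genes Pax2, Pax8, Lhx1, Sall1, Six2, Eya1 and Osr1, taken by symbol from the 49943 genes that RefSeq places on the mouse assembly GRCm38. Peaks of 2 histone marks, H3K9cr (crotonylated lysine 9 of histone H3) and H3K9ac (the same lysine, acetylated), were compared at these genes in whole mouse kidneys by ChIP-seq. WT mice and mice with a global knockout of ACSS2 (ACSS2-/-), an enzyme that makes acyl-CoA from short-chain fatty acids, gave control kidneys and kidneys after unilateral ureteric obstruction (UUO), in which the left ureter was tied off as a model of fibrosis. The C57BL/6J and the ACSS2-/- mice were both aged 6 to 8 weeks by the study's reporting summary. For H3K9cr there were 2 libraries in each of the 4 groups, and for H3K9ac 2 in each UUO group and 1 (replicate 2) in each control group, 14 libraries in all.

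Before the nephron forms, Osr1 marks the intermediate mesoderm, and Six2, Eya1 and Sall1 maintain the cap mesenchyme, the progenitor cells of the nephron. Pax2 and Pax8 act in the ureteric bud and in the mesenchyme as it turns into epithelium, and Lhx1 is needed in the renal vesicle that follows. In the adult kidney the progenitors are gone, while Pax2 and Pax8 stay active in parts of the tubule and collecting duct.

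Each library was deposited as a list of peak positions without height, score or strand, and its read depth is unknown. A list held between 15988 and 45014 peaks, which covered between 17.7 and 64.6 Mb of the genome. The members were therefore measured by covered length, the kb under a peak within the gene body and 10 kb either side, and by the length of single peaks. A peak of 4 kb or more was called a broad domain. In 4 of the 14 lists the number written in the peak names differed from the replicate number of the label, and 8 lists held peaks on chromosome Y whereas 6 held none. In control kidneys the H3K9cr lists of WT replicate 1 held 0 such peaks and the other 3 between 2 and 5. In UUO kidneys both replicate 1 lists of H3K9cr held 5 and 14 and both replicate 2 lists 0.

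The members fell into 3 kinds. Counted over the gene body and 10 kb either side, Pax2, Pax8, Lhx1 and Sall1 carried peaks in all 14 libraries, Osr1 in 9 of them, and Six2 and Eya1 in none. Peaks in all 14 libraries were thus found at 4 of 7 members (57.1%), against 56.1% of the 21887 protein-coding genes, and peaks in no library at 2 of 7 (28.6%), against 23.9%. Broad domains were rarer. Pax2 and Sall1, or 28.6% of the members, had a broad H3K9cr domain in all 4 control libraries, against 2.86% of protein-coding genes, but also 27.8% of 18 adult tubule transcription factors and 15.8% of 19 other progenitor genes. None of the 7 members had one in all 4 UUO libraries, against 1.01% of protein-coding genes. Of the other progenitor genes 15.8% had one there, and of the adult tubule transcription factors 5.56%. A long window holds more peaks than a short one, which this share does not correct for.

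Six2, the factor that keeps nephron progenitors from differentiating, lies at chr17:85662736-85688254. Its nearest peak lay between 197.4 and 457 kb from the gene over the 14 libraries. Eya1, a phosphatase and partner of Six2, lies at chr1:14168953-14311035, and its nearest peak lay between 59.5 and 508 kb away. For these genes there was nothing to compare between marks, operations or genotypes, and peaks below the authors' threshold would not be seen.

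Pax2 spans chr19:44746601-44838269. Its H3K9cr peaks covered 20.1 and 20.6 kb in the WT control libraries and 24.6 and 20.7 kb in the ACSS2-/- control libraries. In UUO kidneys they covered 13.8 and 12.8 kb in WT and 13.6 and 13.0 kb in ACSS2-/- libraries. H3K9ac peaks covered 20.2 kb in the WT and 22.7 kb in the ACSS2-/- control library, and 12.2, 10.6, 10.6 and 14.4 kb in the UUO libraries, WT first. All UUO libraries lay below all control libraries for both marks, and within an operation the ranges of the marks overlapped.

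Pax8, a close relative of Pax2, spans chr2:24420551-24475599. Its H3K9cr peaks covered 14.001 and 11.5 kb in WT control, 20.2 and 15.7 kb in ACSS2-/- control, 11.7 and 6.91 kb in WT UUO and 7.56 and 6.26 kb in ACSS2-/- UUO libraries. H3K9ac peaks covered 10.0 kb in the WT and 13.6 kb in the ACSS2-/- control library, and 3.16, 4.53, 3.52 and 7.90 kb in the UUO libraries, WT first. For H3K9cr the WT UUO replicate 1 library, at 11.7 kb, stood just above the lowest control library, at 11.5 kb, so that the groups overlapped. For H3K9ac they did not.

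Sall1, a zinc finger factor that acts with Six2 in the progenitors, spans chr8:89027242-89044162. H3K9cr peaks covered 13.9 and 13.7 kb in WT control, 17.2 and 15.8 kb in ACSS2-/- control, 11.2 and 9.93 kb in WT UUO and 8.99 and 7.42 kb in ACSS2-/- UUO libraries. H3K9ac peaks covered 11.97 kb in the WT and 14.8 kb in the ACSS2-/- control library, and 6.39, 5.39, 7.06 and 8.81 kb in the UUO libraries, WT first. Control and UUO libraries were apart for both marks.

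Lhx1, a LIM homeodomain factor, spans chr11:84517975-84525534, a short gene whose window also takes in the start of Aatf, which is read from the minus strand. H3K9cr peaks covered 8.46 and 7.39 kb in WT control, 8.21 and 7.45 kb in ACSS2-/- control, 7.28 and 5.06 kb in WT UUO and 6.27 and 6.83 kb in ACSS2-/- UUO libraries. H3K9ac peaks covered 8.78 and 9.15 kb in the WT and ACSS2-/- control libraries, and 3.34, 5.66, 8.19 and 6.05 kb in the UUO libraries, WT first. The lowest control and the highest UUO library were only 7.39 and 7.28 kb for H3K9cr. At the Aatf start, chr11:84512903-84514143 was under a peak in all 14 libraries, so part of this cover lies at another promoter.

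Osr1, a zinc finger factor of the early mesoderm, spans chr12:9574442-9581500 and carried little of either mark. H3K9cr peaks covered 1.36 and 1.34 kb in WT control and 1.90 and 1.35 kb in ACSS2-/- control libraries, against 0.339 and 0 kb in WT UUO and 0.995 and 0 kb in ACSS2-/- UUO libraries. H3K9ac peaks covered 1.20 kb in the WT and 0.423 kb in the ACSS2-/- control library, 0.916 kb in ACSS2-/- UUO replicate 2 and 0 kb in the other 3 UUO libraries. Osr1 had a peak in the stretch around its start, between chr12:9573537 and chr12:9575001, in all 6 control libraries and in 2 of the 8 UUO libraries. The 0.995 kb lay outside the gene body, at chr12:9570498-9570907 and chr12:9584759-9585343. The first of these lies at the start of 1700022H16Rik, a non-coding RNA gene whose promoter had a peak in 4 libraries. The second lies within Gm40268, another such gene, so part of the cover counted for Osr1 lies at its neighbours.

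**Figure D1:**
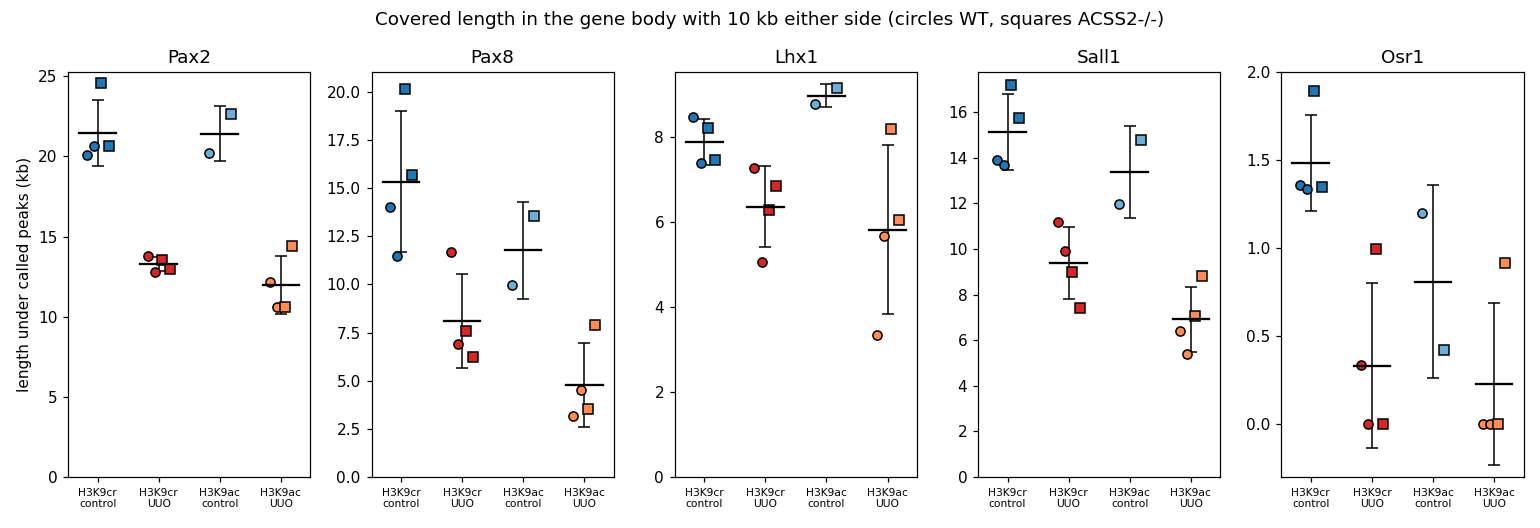
Length under called peaks (kb, linear axis with its own range for each gene) within the gene body and 10 kb either side, by library, mark and operation. Circles are WT and squares ACSS2-/- libraries, and lines and bars give the mean and SD (n = 4, or 2 for H3K9ac in control kidneys). Pax2 and Sall1 lie lower in UUO than in control kidneys for both marks without overlap in kb, which as a share of library cover holds for neither, while Pax8 overlaps for H3K9cr.

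UUO was first compared with control kidneys for H3K9cr, with both genotypes together. Pax2 had 13.3 ± 0.457 kb (SD, n = 4) in UUO and 21.5 ± 2.06 kb in control kidneys, 0.618 times the control mean (two-sided exact permutation p = 0.0286, the smallest that 70 arrangements allow). Sall1 had 9.38 ± 1.59 against 15.1 ± 1.66 kb, a ratio of 0.620 with the same exact p. Lhx1 had 6.36 ± 0.961 against 7.88 ± 0.536 kb, a ratio of 0.807, and Osr1 0.334 ± 0.469 against 1.48 ± 0.274 kb, a ratio of 0.225, each again with an exact p of 0.0286. Pax8 had 8.10 ± 2.44 against 15.3 ± 3.65 kb, a ratio of 0.528 (exact permutation p = 0.0571). Adjusted by Benjamini-Hochberg over the 28438 genes tested, the p-values were 0.149 for the first 4 genes and 0.219 for Pax8, and no gene of the genome passed 0.05, whereas 5447 genes had an unadjusted p under it. Groups did not overlap at 4 of the 5 members with peaks, all lower in UUO, where 16.8% of all genes tested were lower and 2.38% higher by this rule. The median log2 ratio was -0.69 over the 5 members with peaks and -0.23 over all genes with peaks in both groups.

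The H3K9cr lists covered 41.7, 44.8, 64.6 and 51.4 Mb in control and 44.6, 35.0, 39.7 and 29.4 Mb in UUO kidneys, WT first, so that all but 1 UUO list covered less than each control list. Taken as a share of all kb covered in a library, Pax2 overlapped between control and UUO for H3K9cr (exact permutation p = 0.143), as did Sall1 (p = 0.0571 from the same exact test), and the difference at Lhx1 turned to 0.0145 kb per Mb. Osr1 alone kept its groups apart, at 0.0251 kb per Mb in the highest UUO and 0.0262 in the lowest control library. The cover of that UUO library lay outside the Osr1 gene body. On this scale 7.45% of all genes were lower and 14.2% higher in UUO without overlap, and the median log2 ratio over all genes moved from -0.23 to 0.21, against -0.26 over the members. In kb, the exact p of Lhx1 was 0.0571 with 3 kb in place of 10 kb either side, which leaves out the Aatf start, and without each control library or WT UUO replicate 2 in turn, and that of Osr1 was 0.0571 without each control library in turn. With a library left out, the groups of both genes stayed apart. Without a control library, Lhx1 differed by between -1.32 and -1.68 kb, against -1.52 kb with all libraries. Osr1 differed by between -1.01 and -1.2 kb, against -1.15 kb. With the same number of longest peaks taken from every library, Osr1 differed by -0.677 kb (exact permutation p = 0.429), and with peaks of at least 1 kb only by -0.958 kb (exact p = 0.143). With 3 kb around both gene ends only, the exact p of Sall1 was 0.143. Pax8 was apart, with an exact p of 0.0286, under 4 other settings: with 3 kb either side (-6.74 kb), with the same number of longest peaks (-5.88 kb), with peaks of at least 1 kb (-6.45 kb) and without WT control replicate 2 (-8.51 kb). Its groups were also apart without WT UUO replicate 1 (-8.42 kb, exact permutation p = 0.0571) and in the ACSS2-/- libraries alone (-11.01 kb). Bulk tissue was measured, in which fewer cells of a type and less mark per cell cannot be told apart.

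For H3K9ac, the same comparison had 4 against 2 libraries, and 15 arrangements allow no p below 0.0667. Pax2 had 11.95 ± 1.81 kb (SD, n = 4) in UUO and 21.4 ± 1.73 kb (n = 2) in control kidneys, a ratio of 0.558 (two-sided exact permutation p = 0.0667). Pax8 had 4.78 ± 2.16 against 11.8 ± 2.52 kb, a ratio of 0.405, and Sall1 6.91 ± 1.44 against 13.4 ± 1.998 kb, a ratio of 0.517, both with this smallest exact p. Lhx1 had 5.81 ± 1.99 against 8.97 ± 0.265 kb, a ratio of 0.648 (exact permutation p = 0.20), and Osr1 0.229 ± 0.458 against 0.811 ± 0.548 kb with overlap. Pax2, Pax8, Lhx1 and Sall1 were lower without overlap, 4 of the 5 with peaks, where 46.1% of all genes tested were lower and 0.369% higher by this rule. As a share of the covered kb of a library, the differences at Pax2 and Lhx1 turned to 0.0342 and 0.0511 kb per Mb, only Pax8 was lower without overlap, 11.8% of all genes were lower and 20.5% higher, and the median log2 ratio of all genes moved from -0.74 to 0.18.

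Broad domains were then counted. At Pax2 there were 2 in each control library of either mark, and 1, 0, 1 and 2 in the UUO libraries of H3K9cr and 1, 1, 1 and 2 in those of H3K9ac, WT first. At Sall1 there was 1 in each control library, 1 in 3 of the 4 UUO libraries of H3K9cr and 0 in all 4 of H3K9ac. Lhx1 had 1 in 3 of the 4 control and 3 of the 4 UUO libraries of H3K9cr, in both control libraries of H3K9ac and in both ACSS2-/- UUO libraries of H3K9ac. Pax8 had 1 in both control libraries of H3K9ac, in ACSS2-/- UUO replicate 2 of H3K9ac, in ACSS2-/- control replicate 1 of H3K9cr and in WT UUO replicate 1 of H3K9cr. Over all members, H3K9cr libraries held 4, 3, 5 and 4 broad domains in control and 4, 1, 3 and 3 in UUO kidneys. The means differed by -1.25 per library, with an SD of 1.5. This SD and those that follow are for a difference between single libraries, not between group means. Within UUO kidneys ACSS2-/- libraries held 3 and 3 and WT libraries 4 and 1, a difference of 0.5 with an SD of 2.12. H3K9ac libraries held 5 and 5 in control and 1, 1, 2 and 4 in UUO kidneys, a difference of -3 with an SD of 1.41. At a limit of 3 kb, H3K9cr libraries held 6, 7, 6 and 6 in control and 5, 3, 4 and 5 in UUO kidneys, a difference of -2 without overlap, and H3K9ac differed by -1.50. When peaks less than 1 kb apart were joined first, the differences were -0.25 for H3K9cr and 0 for H3K9ac. Broad domains were fewer in the whole lists as well, at between 833 and 1969 per H3K9cr library in control and between 252 and 767 in UUO kidneys.

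The longest single peak was compared in the same way. At Sall1 it measured 10.9 and 12.6 kb in the H3K9ac control libraries, and 3.20, 1.84, 3.28 and 3.63 kb in the UUO libraries. For H3K9cr it measured 7.55, 11.4, 13.1 and 11.8 kb in control and 6.63, 4.13, 8.45 and 3.42 kb in UUO kidneys, where the ACSS2-/- UUO replicate 1 library passed the lowest control (exact permutation p = 0.0571). At Pax2 the longest H3K9cr peak measured 6.62, 8.85, 14.3 and 7.01 kb in control and 4.56, 3.26, 5.21 and 5.36 kb in UUO kidneys, without overlap (p = 0.0286 by the exact test). Its longest H3K9ac peak measured 8.79 and 8.14 kb in control and between 4.34 and 7.09 kb in UUO kidneys. By the longest H3K9cr peak, Pax2 and Osr1 were lower without overlap, 2 members against 13.2% of all genes, with 2.09% higher. By the longest H3K9ac peak, Pax2, Pax8 and Sall1 were lower, 3 members against 43.2%, with 0.353% higher. Among protein-coding genes, the longest H3K9cr peak of Sall1 lay above those of between 99.4% and 99.8% in the control libraries, and that of Pax2 above those of between 98.7% and 99.8%.

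Stretches of at least 100 bp were then sorted by the libraries that marked them. Sall1 was under a peak in all 14 libraries at its start, chr8:89043883-89045432, and within the gene at chr8:89040693-89042322. The stretch within the gene also holds the promoter of Gm3134, a non-coding RNA gene on the plus strand, at chr8:89040993-89041292. A stretch of 1003 bp further inside the gene, chr8:89036074-89037076, lay under H3K9cr in all 4 control and in 0 of the 4 UUO libraries. H3K9ac was under a peak in both control and no UUO library at chr8:89036128-89036414. The limits of such stretches are edges of called peaks. At the next base a peak of ACSS2-/- UUO replicate 2 began, at chr8:89037077 for H3K9cr and at chr8:89036415 for H3K9ac. At Pax8 all 14 libraries shared 2643 bp at the start, chr2:24472988-24475630, and chr2:24468977-24469276 inside the gene was under both marks in all 6 control and in 0 of 8 UUO libraries. H3K9cr peaks of UUO libraries lay next to that stretch, from chr2:24469277 in WT replicate 1 and up to chr2:24468926 in ACSS2-/- replicate 2. It is thus not a separate site of control kidneys. Pax2 shared 7 stretches of at least 100 bp between all 14 libraries, the longest at chr19:44749368-44750886. Upstream of Pax2, chr19:44743822-44744161 was marked in all 6 control and in no UUO library. At chr19:44797945-44800360, deep in the Pax2 gene body, 3 of 4 control libraries of H3K9cr and 1 of 2 of H3K9ac had a peak and no UUO library did. No member had a stretch of at least 100 bp under H3K9cr in all 4 UUO libraries and in no control library.

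**Figure D2:**
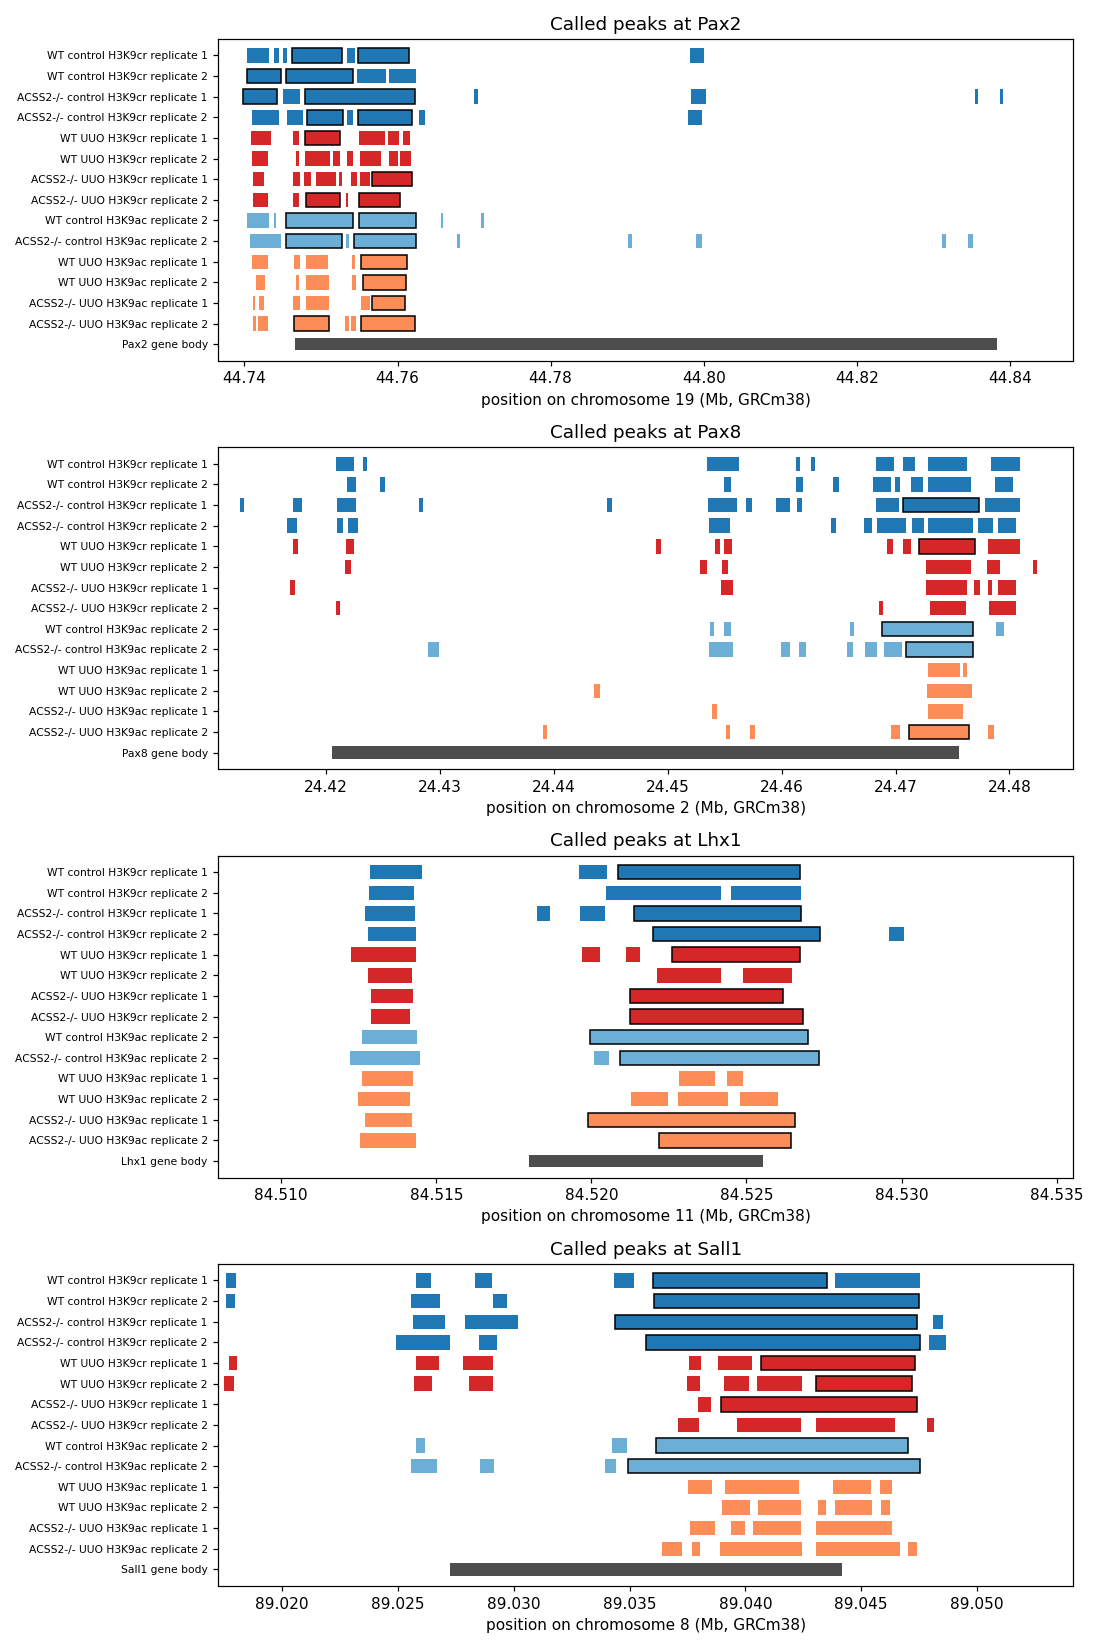
Called peaks of each of the 14 libraries (tracks) along Pax2, Pax8, Lhx1 and Sall1 with 10 kb either side, by position in Mb on GRCm38. Blue tracks are control and red and orange tracks UUO kidneys, the lighter shade of each is H3K9ac, a black outline marks a peak of 4 kb or more, and the grey bar is the gene body. The longest H3K9ac peak over Sall1 spans 10.9 and 12.6 kb in the control libraries and at most 3.63 kb in the 4 UUO libraries.

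The ACSS2-/- genotype was compared with WT within each operation, where 2 against 2 libraries allow no two-sided exact p below 0.333. In control kidneys H3K9cr covered more in ACSS2-/- than in WT libraries at Pax2 (22.6 ± 2.76 against 20.4 ± 0.384 kb, SD, n = 2), Pax8 (17.9 ± 3.17 against 12.7 ± 1.78 kb) and Sall1 (16.5 ± 1.00 against 13.8 ± 0.166 kb), without overlap. At Pax2 the lowest ACSS2-/- and the highest WT library were only 20.652 and 20.641 kb. These were 3 members higher and 0 lower, where 43.5% of all genes tested were higher and 3.27% lower. The ACSS2-/- lists were also longer, at 64.6 and 51.4 Mb against 41.7 and 44.8 Mb in WT. As a share of library cover, Pax2 was lower in ACSS2-/- libraries without overlap, at 0.380 and 0.402 against 0.481 and 0.461 kb per Mb, as were Lhx1 and Osr1, while Pax8 and Sall1 overlapped. On that scale 12.4% of all genes were higher and 26.4% lower, and the median log2 ratio over all genes moved from 0.30 to -0.11.

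In UUO kidneys Sall1 alone was apart, with 8.20 ± 1.11 kb of H3K9cr in ACSS2-/- and 10.6 ± 0.887 kb in WT libraries (SD, n = 2). That was 1 member lower and 0 higher, against 23.8% and 6.76% of all genes tested. On the scale of library cover no member was apart, 13.5% of all genes were lower and 17.8% higher, and the median log2 ratio moved from -0.14 to 0.07. Sall1 was thus higher in control and lower in UUO kidneys of ACSS2-/- mice in kb, as were 9.35% of all genes, and the difference between these effects was -5.05 kb (two-sided exact permutation p = 0.0556, the smallest that 36 arrangements allow). Scaled to library cover, that difference at Sall1 was 0.00439 kb per Mb (exact permutation p = 0.889). In kb it was -7.55 at Pax8 (exact permutation p = 0.111) and -2.24 at Pax2 (p = 0.333 by the same exact test), and as a share it turned to 0.134 kb per Mb at Pax2. Of 15 leukocyte markers 7 were lower in ACSS2-/- UUO libraries and 0 higher, and of 15 proximal tubule markers 5 were higher and 1, Cubn, was lower, and their part in the values of Sall1 was not tested.

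Over both operations, with genotypes permuted within each, H3K9cr at Pax2 differed by 1.11 kb between ACSS2-/- and WT libraries (exact permutation p = 0.444), at Pax8 by 1.40 kb (exact p = 0.556) and at Sall1 by 0.166 kb (exact p = 1). Without ACSS2-/- control replicate 1, the list with the most cover, the differences at Pax2, Pax8 and Sall1 came to -1.09, -1.18 and -1.45 kb. ACSS2-/- then had fewer control than UUO libraries and WT equal numbers, so the lower cover in UUO kidneys enters these values. They therefore do not show how the genotype difference depends on that list.

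For H3K9ac in UUO kidneys, Lhx1 had 7.12 ± 1.51 kb in ACSS2-/- and 4.50 ± 1.64 kb in WT libraries and Sall1 7.93 ± 1.24 against 5.89 ± 0.703 kb (SD, n = 2). These 2 members were higher without overlap and 0 lower, against 28.3% and 1.89% of all genes tested. Scaled to library cover, none of the members was apart, 13.7% of all genes were higher and 16.6% lower, and the median log2 ratio over all genes moved from 0.30 to -0.05. Pax2 and Pax8 overlapped in kb, and without ACSS2-/- UUO replicate 2 their differences turned to -0.775 and -0.329 kb.

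In UUO kidneys H3K9cr was set against H3K9ac. Pax8 had 8.10 ± 2.44 kb of H3K9cr and 4.78 ± 2.16 kb of H3K9ac (SD, n = 4; two-sided exact permutation p = 0.114), and Sall1 9.38 ± 1.59 and 6.91 ± 1.44 kb (exact permutation p = 0.0571). Pax2 had 13.3 ± 0.457 and 11.95 ± 1.81 kb (exact permutation p = 0.257), and Lhx1 6.36 ± 0.961 and 5.81 ± 1.99 kb (p = 0.657 by the same exact test). None of the members was apart, so 0 were higher and 0 lower, against 16.8% and 0.802% of all genes tested. As a share of the covered kb of a library, Pax2 had less H3K9cr than H3K9ac by -0.186 kb per Mb, without overlap (exact permutation p = 0.0286), and the differences at Lhx1 and Sall1 turned to -0.0945 and -0.0631 kb per Mb. On that scale 8.09% of all genes were higher and 24.3% lower, and the median log2 ratio over all genes turned from 0.39 to -0.34. In kb, without ACSS2-/- UUO replicate 2 of H3K9ac, the list of that group with the most peaks, Pax2, Pax8 and Sall1 were apart, with an exact p of 0.0286 for the first 2 and 0.0571 for Sall1. That list covered 30.9 Mb, and the other H3K9ac lists of UUO kidneys 17.7, 21.2 and 19.3 Mb. The share of all genes apart without it is not given here, so these members cannot be set against it. The study took both marks from the same samples, so some of these libraries may share a kidney, while the tests above took them as independent. Which ones do was not settled, as label and peak-name numbers differ. Paired by the number in the peak names, a choice made after seeing the data, 3 UUO pairs gave mean differences of 1.25 kb at Pax2, 1.60 kb at Pax8, 1.69 kb at Sall1 and -0.580 kb at Lhx1. The smallest exact permutation p that 3 pairs allow is 0.25, and of these genes only Sall1 reached it.

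Summed over the members, H3K9cr covered 57.8, 54.5, 72.0 and 60.9 kb in control and 44.2, 34.7, 37.4 and 33.5 kb in UUO libraries, WT first, a log2 ratio of -0.71. H3K9ac covered 52.1 and 60.6 kb in control and 25.1, 26.2, 29.4 and 38.1 kb in UUO libraries, a log2 ratio of -0.93. The sum for ACSS2-/- over WT gave log2 ratios of 0.24 for H3K9cr in control, -0.16 for H3K9cr in UUO and 0.40 for H3K9ac in UUO kidneys. Without ACSS2-/- control replicate 1 of H3K9cr the value in control was 0.12. Without ACSS2-/- UUO replicate 2 of H3K9ac the value for that mark was 0.20. H3K9cr over H3K9ac in UUO kidneys gave 0.34. No p was drawn for a sum over members.

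Start regions of 5 members, Pax2, Pax8, Lhx1, Sall1 and Six2, were found in the RefSeq promoter table of GRCm38.p6, which gives 300 bases around a start. The promoter of Sall1 nearest the annotated gene start lay fully under a peak in all 14 libraries, those of Pax8 and Lhx1 in 13, and of the 3 promoters of Pax2 the middle one, shown here, in 13. The Pax2 promoter at the annotated gene start, chr19:44746351-44746650, lay fully under a peak in only 8 libraries. It had a peak in 12, among them 3 of the 4 UUO libraries of each mark. Lhx1 was without a promoter peak in 1 UUO library of H3K9ac. These are shown because they hold the cover that the libraries share, and Six2, chosen after its values were seen, because it carried none. Capitals mark CpG, a C followed by a G, and each runs 5′ to 3′ on the gene's strand.
Pax2, plus strand, chr19:44755502-44755801: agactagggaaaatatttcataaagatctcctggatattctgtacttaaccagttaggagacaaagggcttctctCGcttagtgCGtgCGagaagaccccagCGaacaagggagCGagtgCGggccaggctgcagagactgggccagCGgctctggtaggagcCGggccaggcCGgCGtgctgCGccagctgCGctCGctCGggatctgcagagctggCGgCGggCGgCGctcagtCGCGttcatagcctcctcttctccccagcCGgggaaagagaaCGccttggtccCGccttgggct
Pax8, minus strand, chr2:24475550-24475849: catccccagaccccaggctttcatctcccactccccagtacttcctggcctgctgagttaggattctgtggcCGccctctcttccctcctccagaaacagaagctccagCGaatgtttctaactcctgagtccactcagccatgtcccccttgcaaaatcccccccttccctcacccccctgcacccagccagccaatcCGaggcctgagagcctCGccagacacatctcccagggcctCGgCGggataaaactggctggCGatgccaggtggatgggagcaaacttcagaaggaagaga
Lhx1, minus strand, chr11:84525485-84525784: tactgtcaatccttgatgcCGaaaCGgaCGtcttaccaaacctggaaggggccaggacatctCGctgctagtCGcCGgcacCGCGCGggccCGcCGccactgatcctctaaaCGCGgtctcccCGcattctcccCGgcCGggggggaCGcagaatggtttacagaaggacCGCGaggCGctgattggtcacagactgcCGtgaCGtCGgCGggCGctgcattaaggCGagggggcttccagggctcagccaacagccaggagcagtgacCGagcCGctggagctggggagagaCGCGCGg
Sall1, minus strand, chr8:89044113-89044412: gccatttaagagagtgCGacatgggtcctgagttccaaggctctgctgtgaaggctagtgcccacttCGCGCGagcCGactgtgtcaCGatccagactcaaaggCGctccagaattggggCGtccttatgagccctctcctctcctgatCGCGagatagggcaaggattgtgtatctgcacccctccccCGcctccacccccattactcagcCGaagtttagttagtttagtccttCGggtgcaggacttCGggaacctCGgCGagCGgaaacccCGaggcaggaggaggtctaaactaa
Six2, minus strand, chr17:85688205-85688504: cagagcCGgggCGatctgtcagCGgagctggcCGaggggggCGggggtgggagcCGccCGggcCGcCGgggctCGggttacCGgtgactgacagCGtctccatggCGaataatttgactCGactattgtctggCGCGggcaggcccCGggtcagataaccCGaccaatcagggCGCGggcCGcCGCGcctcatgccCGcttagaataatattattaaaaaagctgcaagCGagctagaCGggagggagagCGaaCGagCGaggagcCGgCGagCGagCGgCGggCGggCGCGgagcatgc

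The Six2 promoter held 37 CpG and those of Lhx1 and Pax8 31 and 7, while the 3 of Pax2 held 7, 23 and 30 and the 3 of Sall1 18, 27 and 39. The median of 32851 promoters of this length was 7. The Sall1 promoter with 39 CpG had a peak in 12 libraries. Of the 3837 promoters with 30 or more CpG, 6.93% had no peak in any of the 14 libraries, and Six2 was among them. Of the 6074 with 5 to 9 CpG, 7.89% had a peak in all 14, and Pax8 was among these. Motifs were searched on both strands. The GC box GGGCGG was in 35.7% of all promoters, in those shown of Pax2, Pax8 and Six2 and not in those of Lhx1 and Sall1, though the other 2 promoters of Sall1 held it. The TATA box, spelled TATAAA, was in 13.6% of all promoters and in none of these 5. An ETS site, spelled CCGGAAG, was in 8.86% of all promoters and an HNF1 site, spelled GTTAAT, in 7.10%, and neither was in the 5.

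Other genes of kidney development and the adult tubule were compared by the same rule for H3K9cr, UUO against control, where 16.8% of all genes tested were lower and 2.38% higher and the median log2 ratio was -0.23. Of 19 other nephron progenitor and renal vesicle genes, 17 had a peak and 5 were lower, with a median log2 ratio of -0.16. Bmp7, a growth factor that keeps progenitors alive, had 3.98 ± 0.569 kb in UUO and 11.6 ± 2.49 kb in control libraries (SD, n = 4) and Notch2 5.80 ± 1.95 against 14.2 ± 5.39 kb. Of 17 ureteric bud and collecting system genes, 5 were lower and 0 higher, with a median of -0.38, led by Tfcp2l1 with 6.16 ± 1.69 against 21.4 ± 4.48 kb. Of 18 adult tubule transcription factors, 10 were lower and 0 higher, with a median of -0.91, below that of the members, led by Esrrg with 6.18 ± 2.09 against 22.6 ± 7.49 kb. Of 11 podocyte and stromal factors 1 was lower, Foxc1, and of 26 paralogues of the members, 10 of which had no peak in any library, Osr2 was lower.

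Markers of kidney cell types were measured in the same libraries, against the same shares of all genes. Of 15 proximal tubule markers, 11 were lower in UUO for H3K9cr and 0 higher, and their summed cover was 111, 89.7, 186 and 108 kb in control and 42.5, 22.0, 34.3 and 34.7 kb in UUO libraries. Slc27a2 had the most cover in both WT control libraries, and Slc5a2 and Kap were at 0 in 3 and 4 of the UUO libraries. Of 15 leukocyte markers, 8 were higher and 0 lower, with a sum of 14.3, 19.0, 30.2 and 21.1 kb in control and 93.6, 76.3, 73.8 and 42.1 kb in UUO libraries. C1qc led in all 4 UUO libraries, Ptprc, C1qa, C1qb and C1qc were at 0 in all 4 control libraries, and Itgam was at 0 in all 8. C1qc, C1qa and C1qb, with means of 11.3, 9.15 and 9.10 kb in UUO libraries, are neighbouring genes with overlapping windows. The same peaks therefore enter the leukocyte counts and sums of both marks more than once. Of 15 distal nephron markers, 5 were lower and 1 higher, and their sum went from between 47.6 and 75.5 kb in control to between 21.4 and 34.1 kb in UUO libraries, led by Slc12a3 in control, with Calb1 and Pvalb at 0 in all 8. Of 10 endothelial markers 4 were lower, and their sum was 31.4, 51.0, 68.5 and 47.9 kb in control, where Egfl7 led, and 41.0, 25.3, 34.6 and 17.6 kb in UUO libraries. Of 10 injured tubule markers Cd44 was higher, with sums of 12.6, 12.7, 19.0 and 16.0 kb in control, where Spp1 led and Havcr1 was at 0, and 34.4, 28.5, 31.9 and 15.7 kb in UUO libraries. Of 12 stroma markers Col1a1 was higher, with sums of 8.92, 13.2, 21.0 and 9.91 kb in control and 25.7, 20.6, 22.8 and 12.1 kb in UUO libraries, and Lum at 0 in all 8. For H3K9ac, where 46.1% of all genes tested were lower and 0.369% higher, 14 of the proximal tubule markers were lower, with sums of 88.8 and 119 kb in control and 12.1, 14.4, 28.6 and 28.1 kb in UUO libraries. Of the leukocyte markers 6 were higher and 1, Cd79a, was lower for H3K9ac, with sums of 23.4 and 40.7 kb in control and 29.6, 52.9, 34.6 and 83.6 kb in UUO libraries. The part of these cell types in the lower cover of Pax2, Sall1, Lhx1, Pax8 and Osr1 was not tested.

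The protein-coding genes most like each member across the 14 libraries, by Pearson's r of covered length as a share of its library, were Rpl36al (0.952) and Ctnna1 (0.938) for Pax2 and Arhgef39 (0.916) and Pik3ca (0.911) for Pax8. They were Aggf1 (0.948) and Echdc1 (0.936) for Lhx1, Nfyc (0.925) and Fam160a2 (0.921) for Sall1 and Cndp2 (0.899) and Marchf1 (0.878) for Osr1. Each stands at the top of 14616 or 14617 genes compared over the same 14 libraries, and says nothing of shared function.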

How the data were processed

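ChIP-seq of H3K9cr and H3K9ac was done on whole kidneys. According to the methods and the submitters' processing notes, the authors trimmed reads, aligned them to mm10 with Bowtie2, removed organelle reads, poorly mapped reads and duplicates, called peaks in each library with MACS2 and annotated them with ChIPseeker. Versions are not given in the sources used here. The deposited lists hold positions only, and neither heights nor depths. P-values measure the spread between these libraries.

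Covered length was the number of bases under a peak in each RefSeq GRCm38.p6 gene with 10 kb either side. Groups were called apart when their libraries did not overlap. Every gene with cover entered an exact permutation test (two-sided), and Benjamini-Hochberg adjustment ran over all of them. Named genes were the members, up to 3 genes per list and direction with the largest differences, and the 2 most like genes. The members and lists were chosen with earlier results of these data known. Alternatives were other windows, peak filters and scales, single genotypes, a block and leaving out each library. Code was tested on simulated data. The code ran under Python 3.11.15 with pandas 2.3.3, numpy 2.4.6 and SciPy 1.17.1, and figures were drawn with matplotlib 3.10.9. A result for 1 listed gene is not reported here.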

Additional observations from a re-analysis of the deposited data

Results flagged for a closer look

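Within the groups of 4 libraries, ACSS2-/- control H3K9cr replicate 1 lay far above the other 3 control libraries at Pax2, with 24.6 kb, and at Osr1, with 1.90 kb. Its list also covered the most of the genome, 64.6 Mb. At Osr1, ACSS2-/- UUO H3K9ac replicate 2 had 0.916 kb where the other 3 UUO libraries had 0 kb. Chance alone marks about 1 in 20 such groups if their values vary smoothly, and 18 were looked at. A group with 0 kb in all but 1 library, as for H3K9ac at Osr1, is always marked, so that rate does not apply to it.

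At Sall1, H3K9cr covered more in ACSS2-/- than in WT control libraries and less in ACSS2-/- than in WT UUO libraries, a difference between the effects of -5.05 kb (two-sided exact permutation p = 0.0556, the smallest that 36 arrangements allow). The same opposite pattern was found at 9.35% of all genes. As a share of library cover the difference was 0.00439 kb per Mb (exact permutation p = 0.889).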

How the results depend on the processing

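Read depth is unknown, and the scale decided most of what follows. As a share of a library's covered length, the summed log2 ratios were -0.27 and -0.0034 for UUO against control (H3K9cr, H3K9ac), 0.068, -0.18 and 0.058 for ACSS2-/- against WT (H3K9cr in UUO, in control, H3K9ac in UUO) and -0.41 for H3K9cr against H3K9ac. On that scale single genes turned as follows (kb per Mb): Lhx1 0.0145 (UUO, H3K9cr), Pax2 0.0342 and Lhx1 0.0511 (UUO, H3K9ac), Pax2 -0.0129, Pax8 -0.00762, Lhx1 -0.00325 and Sall1 -0.0304 (genotype, H3K9cr), Pax2 -0.0846 (genotype, H3K9ac), Pax2 -0.186, Lhx1 -0.0945 and Sall1 -0.0631 (marks), and Pax2 0.134 and Sall1 0.00439 (difference between the genotype effects). With 3 kb around the ends only, Pax2 gave -0.0375, Sall1 -0.195 and Osr1 -0.0195 kb for genotype in H3K9cr, and Pax2 -0.276 and Osr1 -0.0243 kb for the marks. With 3 kb around the gene, Osr1 gave -0.0195 and -0.0243 kb, and with equal numbers of peaks -0.00325 kb for genotype. The difference between the genotype effects was 0.0530 kb at Pax2 and -0.339 kb at Lhx1 around the ends only, and at Osr1 -0.3 kb with either 3 kb window and -0.556 kb with peaks of at least 1 kb. These checks of that difference were chosen after seeing the data. The ACSS2-/- libraries alone gave 0.0350 kb for Osr1 (UUO, H3K9ac) and -0.571 kb for Lhx1 (marks). Broad H3K9ac domains differed by -1.50 at a limit of 3 kb and by 0 when joined. Except where the scale itself divides out the library total, the cause was not tested.

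Chosen after seeing the data, libraries with chromosome Y peaks gave a summed log2 ratio of -0.56 for UUO in H3K9ac, broad domain differences of -1 (UUO, H3K9ac) and -1 (genotype, H3K9cr in UUO), 0.105 kb for Osr1 (UUO, H3K9ac), -0.0232 kb for Lhx1 (genotype, H3K9cr), -0.761 kb for Pax2 and -0.249 kb for Osr1 (marks), and -1.45 kb for Lhx1 (difference between the genotype effects). Those without gave -0.775 kb for Pax2 and -0.329 kb for Pax8 (genotype, H3K9ac). For Lhx1 (genotype, H3K9cr), the libraries with chromosome Y peaks held control and UUO kidneys in unequal shares by genotype, so the operation enters that value. Leaving out each library in turn, the summed log2 ratio lay between -0.32 and 0.030 and the broad domain difference between -1 and 2 for genotype in H3K9cr UUO kidneys. For genotype in H3K9cr over both operations, Pax2 lay between -1.09 and 2.76, Pax8 between -1.18 and 3.45, Lhx1 between -0.517 and 0.617 and Sall1 between -1.45 and 1.81 kb. Leaving out a library there makes control and UUO libraries unequal in its genotype, so these ranges also hold the difference between operations. For genotype in H3K9ac, Pax2 lay between -0.775 and 3.04 and Pax8 between -0.329 and 4.05 kb, and for the marks Lhx1 lay between -0.275 and 1.34 and Osr1 between -0.116 and 0.334 kb. The difference between the genotype effects lay between -0.630 and 1.59 kb at Lhx1 and between -0.442 and 0.553 kb at Osr1. Of 78 values of sums and broad domains under other settings, 67 kept their direction and moved by no more than the spread between replicates, 7 moved further and 4, all given above, changed direction.

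With the replicate number of the labels as a replicate block, Pax2 gave -8.20 kb for UUO in H3K9cr (two-sided exact permutation p = 0.0556, the smallest that 36 arrangements allow), so no call at 0.05 was possible. Label and peak-name numbers differ in 4 lists, so whether this block joins libraries of 1 kidney is open.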

Other observations

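Genes around the members were compared by genotype and by mark with the same rule. For H3K9cr in control kidneys, 8 of 19 other nephron progenitor and renal vesicle genes were higher in ACSS2-/- libraries and 1 lower, 7 of 18 adult tubule transcription factors were higher and 0 lower, and 3 of 17 ureteric bud genes were higher and 2 lower, where 43.5% of all genes tested were higher and 3.27% lower. Notch2 had 18.1 ± 5.08 kb in ACSS2-/- and 10.3 ± 0.692 kb in WT control libraries (SD, n = 2). For H3K9cr in UUO kidneys, 5 of the 19 progenitor genes were lower in ACSS2-/- and 1, Osr2, was higher, where 23.8% of all genes tested were lower and 6.76% higher. Tyrobp, a leukocyte marker, had 5.45 ± 0.135 kb in ACSS2-/- and 7.89 ± 0.206 kb in WT UUO libraries (SD, n = 2).

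Osr2, the paralogue of Osr1, had 0.294 ± 0.393 kb of H3K9cr in UUO and 4.39 ± 2.11 kb in control libraries (SD, n = 4), without overlap. For H3K9ac it had 0.725 ± 0.476 kb (n = 4) against 5.62 ± 2.92 kb (n = 2). For H3K9ac in UUO against control, 15 of 18 adult tubule transcription factors were lower and 0 higher, led by Hnf4a with 3.62 ± 2.65 against 20.5 ± 5.84 kb, and 11 of 17 ureteric bud genes, 5 of 19 progenitor genes and 6 of 26 paralogues were lower. Of all genes tested 46.1% were lower and 0.369% higher. In UUO kidneys H3K9cr lay above H3K9ac without overlap at 4 of 18 adult tubule factors, 2 of 19 progenitor genes and 3 of 26 paralogues, and below it at none of these, where 16.8% of all genes tested lay above and 0.802% below.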
